A study of Mus musculus with 6 samples.

Results

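Carriers that move amino acids, sugars and monocarboxylates such as lactate across cell membranes were compared between 3 mouse tissues: testis, epididymis and SVF, the stromal vascular fraction of adipose tissue, which is the mixture of non-fat cells that remains when fat is taken apart. The carriers were all genes that the array annotation names Slc1, Slc2, Slc3, Slc5, Slc6, Slc7, Slc16, Slc36, Slc38 or Slc43 with a letter and a number, which gave 96 of 18545 named genes. They were read by 103 probes, and 7 of them had 2 probes whose values were averaged. Transcripts from the opposite strand of 3 carriers bear a longer symbol and were left out.

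Total RNA of the 3 tissues, 1 RNA sample for each, was compared on 6 two-colour microarrays, with each pair of tissues on 2 arrays whose dyes, Cy3 and Cy5, were exchanged. The sources used here do not give the strain, age, treatment or number of animals behind each RNA, and name no agent or allele. The value of a gene on an array is the log2 ratio of one tissue over the other, and a mean ± SD is over the 2 arrays of a dye swap (n = 2). That error covers the dye and the hybridisation but not the difference between animals, so no test between tissues was possible and no p-value is given. A carrier is called higher in a tissue where its log2 ratio was at least 1, a 2-fold difference, in the same direction on both arrays. In whole tissues, fewer cells of a type and less RNA per cell cannot be told apart. The direction of all ratios is likely rather than stated: the tissue in Cy5, which each title names first, was taken as the numerator, and markers of the tissues lay on the side this gives. Of the 12 late spermatid genes measured, testis was the higher side over SVF for 11 and SVF for none, all 10 measured genes of the epididymal duct epithelium were higher in epididymis than in SVF and in epididymis than in testis, and all 6 measured macrophage genes were higher in SVF than in either other tissue. Of 7 measured adipocyte genes, SVF was the higher side for 6 against testis and for 3 against epididymis. Over all named genes, testis was the higher side over SVF for 20.7% and SVF for 16%. Epididymis was the higher side for 10.2% against SVF and 14.3% against testis, and SVF for 8.68% against epididymis.

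As background, the Slc1, Slc6, Slc7, Slc36, Slc38 and Slc43 families carry mainly amino acids and related small molecules, the Slc2 and Slc5 families hold the facilitative and the sodium-driven sugar carriers, and Slc16 holds the monocarboxylate carriers. Slc3 proteins are heavy chains that take certain Slc7 light chains to the cell surface. In the testis, Sertoli cells take up glucose and pass lactate to the germ cells behind the blood-testis barrier, and in the epididymis the duct epithelium sets the amino acids, sugars and other small molecules of the fluid in which sperm mature.

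In testis over SVF, 10 of the 96 carriers (10.4%) were higher in testis, against 20.7% of all named genes, and 16 (16.7%) were higher in SVF, against 16% of all named genes. In epididymis over SVF, 13 (13.5%) were higher in epididymis, against 10.2% of all named genes, and 7 (7.29%) were higher in SVF, against 8.68%. In epididymis over testis, 26 (27.1%) were higher in epididymis, against 14.3%, and 8 (8.33%) were higher in testis, against 18%. The share of carriers was above that of all named genes on the epididymal side of epididymis over testis and below it on the testis side of both comparisons with testis, while the other shares lay nearer to the background. The median log2 ratio of the carriers was -0.22 in testis over SVF, 0.18 in epididymis over SVF and 0.10 in epididymis over testis, against 0.0038, 0.07 and -0.0035 over all named genes. These medians are small and moved with the array: the array with epididymis in Cy5 alone gave 0.08 over SVF, below the 0.14 of all named genes on that array, and 0.21 over testis, and the exchanged array alone gave 0.28 over testis. Each tissue enters 2 of the comparisons, so the comparisons share RNA samples and do not support each other. With 1 array in place of 2 the counts grew: the array with testis in Cy5 alone gave 16 carriers higher in testis than SVF, and the exchanged array alone gave 25 higher in SVF than testis. In epididymis over SVF the exchanged array alone gave 23 higher in epididymis, and either array alone gave 12 higher in SVF. In epididymis over testis the exchanged array alone gave 13 higher in testis and the other array alone gave 17.

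**Figure D1:**
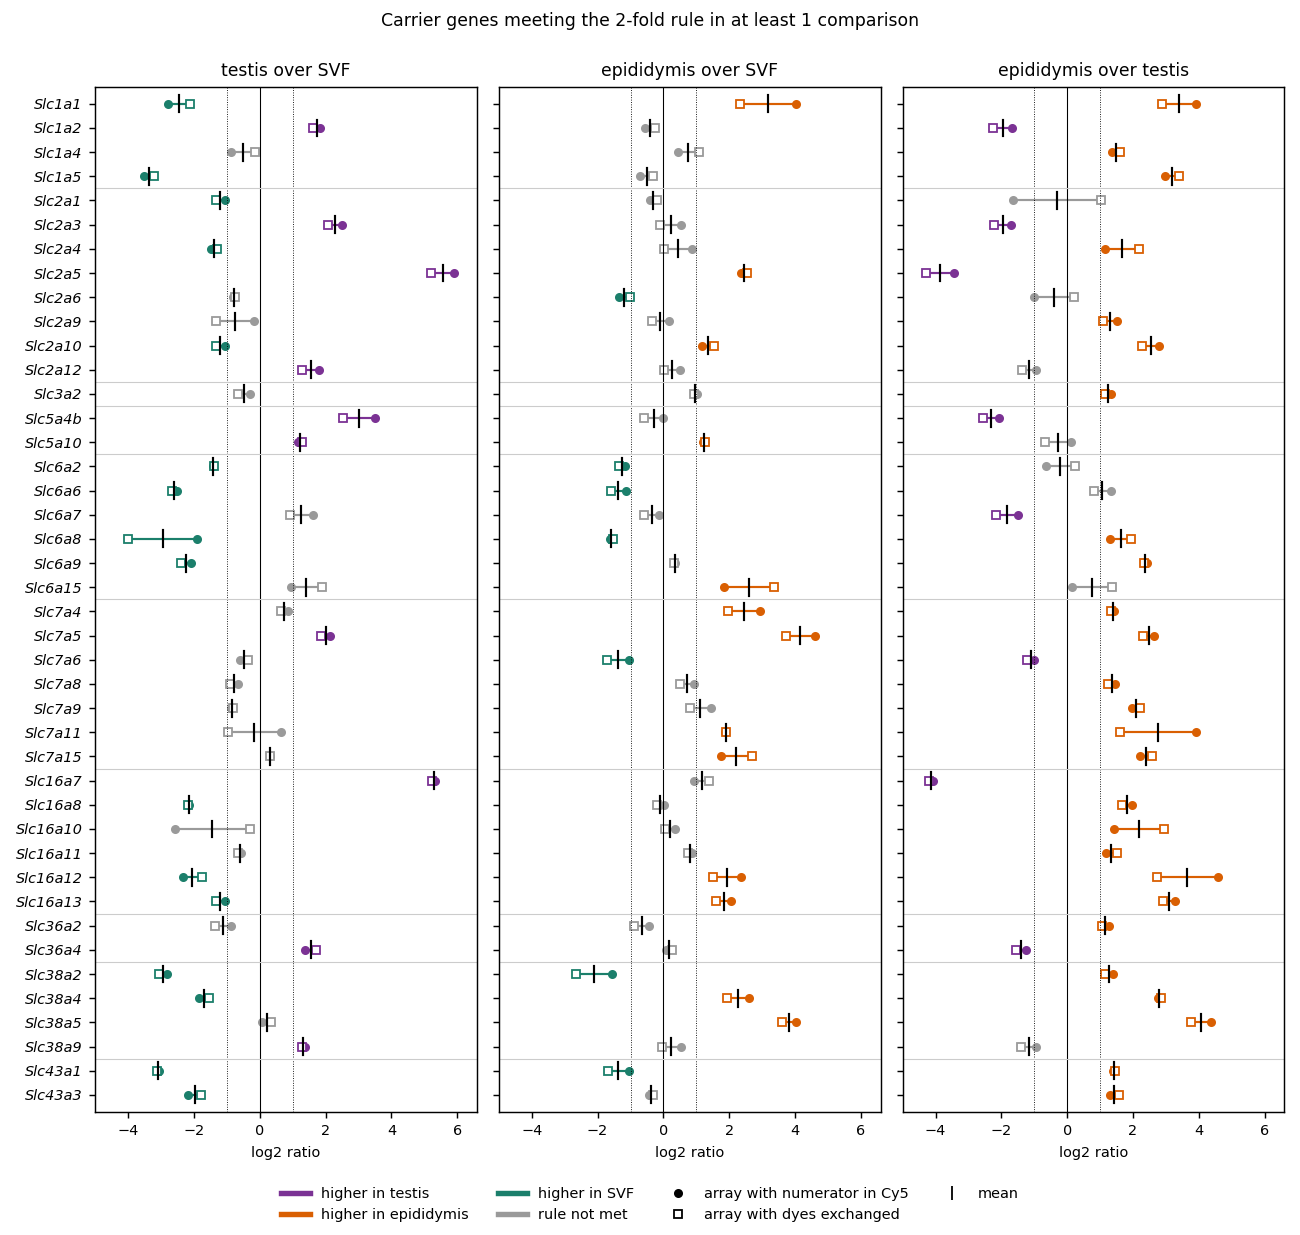
Log2 ratios of the 42 carriers that met the 2-fold rule in at least 1 comparison, in 3 panels for testis over SVF, epididymis over SVF and epididymis over testis. A filled circle is the array with the numerator tissue in Cy5, an open square the array with the dyes exchanged and the bar their mean. Slc2a5 and Slc16a7 lie farthest toward testis, at means of 5.55 and 5.28 over SVF, and Slc38a5 and Slc16a12 farthest toward epididymis over testis, at 4.06 and 3.65.

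Counts by family rest on 2 to 18 members each, and no difference between families was tested. In epididymis over testis, epididymis was the higher side for 6 of 15 Slc7 carriers, 5 of 13 Slc16 carriers, 3 of 10 Slc38 carriers, 3 of 7 Slc1 carriers, 3 of 11 Slc2 carriers, 2 of 18 Slc6 carriers, 2 of 3 Slc43 carriers, 1 of 4 Slc36 carriers and 1 of 2 Slc3 carriers. The 13 Slc5 carriers had none on that side, and the share over all named genes was 14.3%, which Slc6 (11.1%) lay close to. Testis was the higher side for 2 Slc2 carriers and for 1 each of Slc1, Slc5, Slc6, Slc7, Slc16 and Slc36. Between epididymis and SVF, epididymis was the higher side for 4 Slc7, 2 Slc2, 2 Slc16 and 2 Slc38 carriers and 1 each of Slc1, Slc5 and Slc6, and SVF for 3 Slc6 carriers and 1 each of Slc2, Slc7, Slc38 and Slc43. In testis over SVF, testis was the higher side for 3 Slc2 and 2 Slc5 carriers and for 1 each of Slc1, Slc7, Slc16, Slc36 and Slc38. SVF was the higher side of that comparison for 4 Slc6, 3 Slc2, 3 Slc16, 2 Slc1, 2 Slc38 and 2 Slc43 carriers. Of all named genes, 18% were higher in testis than epididymis, 20.7% higher in testis than SVF and 16% higher in SVF than testis. Between epididymis and SVF, 10.2% were higher in epididymis and 8.68% in SVF. In families of these sizes, such counts are too few to read beside those shares.

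**Figure D2:**
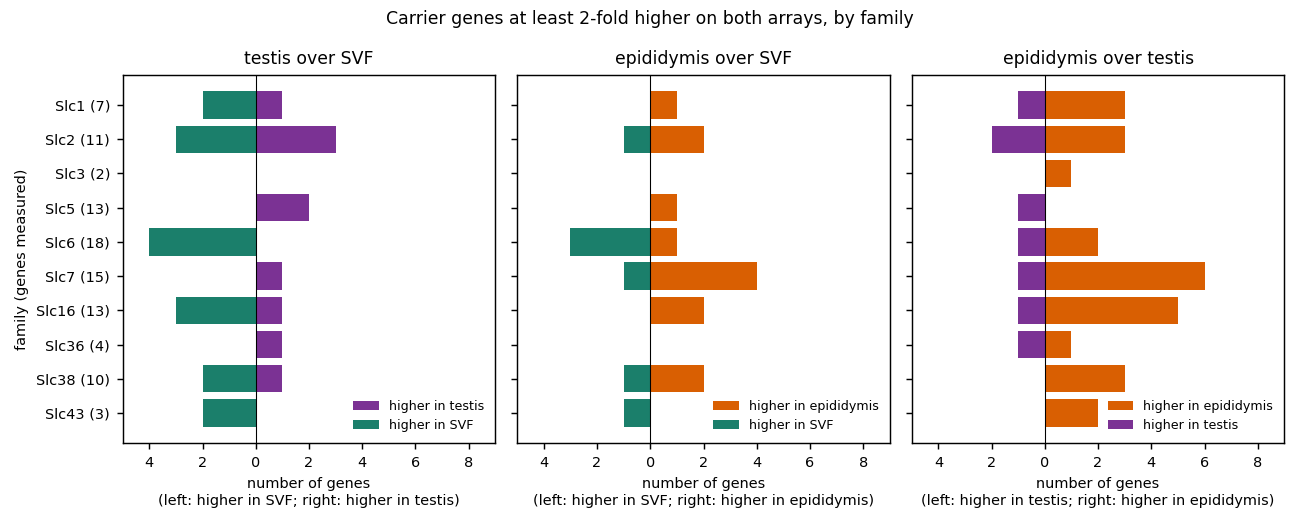
Number of carriers of each Slc family that met the 2-fold rule on both arrays, drawn to the right where the numerator tissue was higher and to the left where the denominator tissue was higher, for the 3 comparisons. Slc7 and Slc16 hold 11 of the 26 carriers higher in epididymis than testis, 40.0% and 38.5% of their 15 and 13 members, against 14.3% of all named genes. Slc6 holds 4 of the 16 higher in SVF than testis, 22.2% of its 18 members, against 16% of all named genes.

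Promoter sequences are shown for 4 carriers that mark the main patterns, and these 4 were chosen after their values were seen. Slc2a5 had the largest ratio of testis over SVF and Slc38a5 the largest of epididymis over testis, and Slc7a11 and Slc1a4 were both higher in epididymis than testis and hold the letters TGATGNAA, the core of the amino acid response element. That element is bound by Atf4 when amino acids run short. Windows of Slc6a21 and Slc7a7 hold the same letters, and these carriers met the rule in no comparison. Slc7a11 and Slc1a4 are shown because they hold the letters and also met the rule, so no link between letters and tissue can be read. Each sequence runs from 250 bases before to 50 bases after the transcription start, in mouse RefSeq on build GRCm38.p6, is written 5′ to 3′ on the gene's strand, and has matches to the searched motifs in capitals. Slc2a5 lies at chr4:150119094-150119393 on the plus strand, Slc38a5 at chrX:8271131-8271430 on the plus strand, Slc7a11 at chr3:50443564-50443863 on the minus strand and Slc1a4 at chr11:20332664-20332963 on the minus strand.
Slc2a5: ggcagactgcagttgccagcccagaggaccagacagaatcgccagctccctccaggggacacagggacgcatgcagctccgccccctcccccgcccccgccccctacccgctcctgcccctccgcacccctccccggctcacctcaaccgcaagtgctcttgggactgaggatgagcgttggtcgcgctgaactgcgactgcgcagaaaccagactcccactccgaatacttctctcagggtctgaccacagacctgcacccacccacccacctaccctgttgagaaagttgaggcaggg
Slc38a5: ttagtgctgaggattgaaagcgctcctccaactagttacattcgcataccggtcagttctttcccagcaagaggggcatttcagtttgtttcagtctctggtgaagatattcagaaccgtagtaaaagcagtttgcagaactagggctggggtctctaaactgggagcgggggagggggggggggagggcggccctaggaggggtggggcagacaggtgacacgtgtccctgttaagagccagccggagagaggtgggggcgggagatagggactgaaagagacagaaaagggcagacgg
Slc7a11: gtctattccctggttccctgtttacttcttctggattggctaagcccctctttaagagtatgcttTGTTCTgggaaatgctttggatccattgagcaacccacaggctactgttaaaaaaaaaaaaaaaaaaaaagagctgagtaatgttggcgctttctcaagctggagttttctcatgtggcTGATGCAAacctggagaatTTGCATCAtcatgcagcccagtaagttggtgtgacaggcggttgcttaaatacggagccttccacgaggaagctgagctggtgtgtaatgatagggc
Slc1a4: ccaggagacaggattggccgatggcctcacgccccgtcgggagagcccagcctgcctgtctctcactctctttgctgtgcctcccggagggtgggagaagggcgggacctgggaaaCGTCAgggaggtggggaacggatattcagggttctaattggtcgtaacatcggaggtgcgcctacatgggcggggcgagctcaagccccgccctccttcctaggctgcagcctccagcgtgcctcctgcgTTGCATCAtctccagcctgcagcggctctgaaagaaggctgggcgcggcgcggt
The Slc7a11 window holds 2 matches to TGATGNAA and 1 to AGAACA, the half-site of the androgen receptor. The Slc1a4 window holds 1 match to TGATGNAA and 1 to TGACG, the half-site of the cyclic AMP response element. The windows of Slc2a5 and Slc38a5 hold no match to these motifs or to TATAAA, the TATA box. All 4 motifs were searched on both strands. RefSeq gave 94 such windows for 71 of the 96 carriers, and the carriers' windows held the motifs about as often as all 32851 windows of the genome table. TGATGNAA was in 5.32% of the carriers' windows (5 of 94) and 3.97% of all windows, TGACG in 21.3% and 20.8%, AGAACA in 19.1% and 19.0%, and TATAAA in 10.6% and 13.6%. The carriers' windows had a median GC content of 58.0%, against 52.7% over all windows. A match describes the letters only.

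Among the sugar carriers, the fructose carrier and the high-affinity glucose carrier were higher in testis, and the insulin-responsive glucose carrier was lower there. Slc2a5 (GLUT5), the fructose carrier, had log2 ratios of testis over SVF of 5.91 and 5.20 (mean 5.55 ± 0.50, 47.0-fold). Its ratios of epididymis over SVF were 2.37 and 2.53 (2.45 ± 0.12, 5.46-fold), and those of epididymis over testis were -3.44 and -4.28 (-3.86 ± 0.59, 14.5-fold higher in testis). All 6 arrays therefore placed Slc2a5 highest in testis, next in epididymis and lowest in SVF. In epididymis over SVF 10 of 12 late spermatid genes were also higher in epididymis, with means over the list from 1.32 to 2.76, and their part in the Slc2a5 ratio was not tested.

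Slc2a3 (GLUT3), a glucose carrier of high affinity, read 2.49 and 2.09 in testis over SVF (2.29 ± 0.28, 4.88-fold) and -1.69 and -2.21 in epididymis over testis (-1.95 ± 0.37, 3.87-fold higher in testis). Between epididymis and SVF its arrays read 0.53 and -0.09, on either side of zero, so only the comparisons with testis set Slc2a3 apart. Slc2a12 (GLUT12) was higher in testis than SVF at 1.80 and 1.29 (1.55 ± 0.36, 2.93-fold), and its ratios of epididymis over testis, -0.95 and -1.37, missed the rule on 1 array. Slc2a8 (GLUT8) read 1.25 and 0.95 in testis over SVF and missed the rule in the same way.

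Other glucose carriers were on the side of SVF or epididymis. Slc2a4 (GLUT4), which insulin brings to the surface of fat and muscle cells, read -1.47 and -1.31 in testis over SVF (-1.39 ± 0.12, 2.62-fold higher in SVF) and 1.15 and 2.19 in epididymis over testis (1.67 ± 0.73, 3.18-fold). Slc2a4 was thus lower in testis than in both other tissues, and its ratios of epididymis over SVF, 0.88 and 0.03, did not meet the rule. Slc2a10 (GLUT10) differed in all 3 comparisons, at -1.07 and -1.33 in testis over SVF, 1.16 and 1.52 in epididymis over SVF (1.34 ± 0.25, 2.54-fold) and 2.80 and 2.27 in epididymis over testis (2.54 ± 0.37, 5.81-fold), which placed it highest in epididymis and lowest in testis. Slc2a1 (GLUT1), the widespread basal glucose carrier, read -1.06 and -1.34 in testis over SVF (-1.20 ± 0.20, 2.30-fold higher in SVF). Its 2 arrays of epididymis over testis were opposite in sign, -1.66 and 1.03, and its call in testis over SVF was lost when all 6 arrays were fitted together. Slc2a9, a urate carrier, was higher in epididymis than testis at 1.51 and 1.10 (1.30 ± 0.29), and Slc2a6 was higher in SVF than epididymis at -1.35 and -1.03 (-1.19 ± 0.23, 2.28-fold). Slc2a2, Slc2a8 and Slc2a13 met the rule in no comparison, with means between -0.48 and 1.10.

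In the sodium-driven Slc5 family, Slc5a4b (SGLT3b), a relative of the sodium-glucose carriers, was the member with the largest called ratio. It read 3.49 and 2.52 in testis over SVF (3.01 ± 0.69, 8.03-fold) and -2.07 and -2.55 in epididymis over testis (-2.31 ± 0.34, 4.96-fold higher in testis). Between epididymis and SVF it read -0.02 and -0.58, so only the comparisons with testis set it apart. Slc5a10 (SGLT5) was higher than SVF in testis, at 1.15 and 1.29 (1.22 ± 0.10, 2.33-fold), and in epididymis, at 1.19 and 1.27 (1.23 ± 0.05, 2.34-fold), while its epididymis over testis arrays read 0.13 and -0.67. The other 11 Slc5 carriers met the rule in no comparison, with means between -1.22 and 0.92. They include Slc5a1 and Slc5a2, the glucose carriers of intestine and kidney, whose means of testis over SVF were 0.73 and 0.33. Slc5a4a, the neighbour of Slc5a4b on the chromosome, followed the dye in place of the tissue. Its deposited values were negative on all 6 arrays, so that testis over SVF read -3.12 and 2.61 and epididymis over SVF -2.60 and 4.44, and no tissue difference can be read for it.

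Among the monocarboxylate carriers, Slc16a7 (MCT2), a lactate and pyruvate carrier of high affinity, was far higher in testis than in the other tissues. It read 5.32 and 5.24 in testis over SVF (5.28 ± 0.05, 38.9-fold) and -4.07 and -4.20 in epididymis over testis (-4.14 ± 0.09, 17.6-fold higher in testis). The 2 arrays of each swap differed by little beside these ratios. Its ratios of epididymis over SVF were 0.93 and 1.39, just short of the rule on 1 array. Slc16a1 (MCT1), the widespread member, was within 2-fold on every array, with means of -0.46, 0.23 and 0.02 in testis over SVF, epididymis over SVF and epididymis over testis. Slc16a3 (MCT4), which exports lactate from glycolytic cells, read -0.71 and -2.19 in testis over SVF and met the rule in no comparison.

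Of the 13 Slc16 carriers, 5 were higher in epididymis than testis. Slc16a12, a creatine carrier, read 4.57 and 2.72 in epididymis over testis (3.65 ± 1.31, 12.5-fold), 2.36 and 1.49 in epididymis over SVF (1.93 ± 0.62, 3.80-fold) and -2.34 and -1.75 in testis over SVF (-2.05 ± 0.42, 4.13-fold higher in SVF). Slc16a13, a monocarboxylate carrier of the same family, read 3.28 and 2.91 in epididymis over testis (3.10 ± 0.27, 8.55-fold), 2.04 and 1.61 in epididymis over SVF (1.82 ± 0.31, 3.54-fold) and -1.07 and -1.34 in testis over SVF. Both carriers were thus highest in epididymis and lowest in testis. Slc16a11, which lies next to Slc16a13, was higher in epididymis than testis at 1.17 and 1.52 (1.34 ± 0.25) and within 2-fold on each array of the other comparisons. Slc16a10 (TAT1), a carrier of aromatic amino acids, read 1.44 and 2.94 in epididymis over testis (2.19 ± 1.06, 4.55-fold), with 1 array well above the other. Slc16a8 (MCT3) was low in testis, at -2.14 and -2.18 in testis over SVF (-2.16 ± 0.02, 4.47-fold higher in SVF) and 1.98 and 1.68 in epididymis over testis (1.83 ± 0.21, 3.56-fold). Besides Slc16a1 and Slc16a3, Slc16a4, Slc16a5, Slc16a6, Slc16a9 and Slc16a14 met the rule in no comparison. The highest mean among these 7 was that of Slc16a4 in epididymis over testis, 1.73 ± 1.19, on arrays of 0.89 and 2.57.

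Monocarboxylate carriers reach the membrane with a chaperone of the basigin family, and none of the 3 measured met the rule toward testis, the side of Slc16a7. Of all named genes, 20.7% were higher in testis than SVF and 18% higher in testis than epididymis, so 3 genes are too few to read. Emb (embigin), a partner of Slc16a7, was higher in SVF than testis (-2.27 ± 0.12), higher in epididymis than SVF (1.30 ± 0.30) and higher in epididymis than testis (2.87 ± 0.41). Bsg (basigin), the usual partner of Slc16a1 and Slc16a3, had means of 0.71, 0.70 and 0.06 in testis over SVF, epididymis over SVF and epididymis over testis and met the rule in none. Nptn (neuroplastin) met it in none either.

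Of 23 measured glycolysis and lactate enzymes, testis was the higher side over SVF for 9 (39.1%, against 20.7% of all named genes) and SVF for 4 (17.4%, near the 16% of all named genes). The median log2 ratio was 0.51, against 0.0038 over all named genes, but it was 0.89 on the array with testis in Cy5, 0.14 on the exchanged array and 0.20 with all 6 arrays fitted together. The largest on the testis side were the sperm forms Pgk2 (5.59 ± 1.13) and Gapdhs (4.81 ± 0.58), together with Pgam2 (4.87 ± 0.52). The largest on the SVF side were the general forms Pgk1 (-2.22 ± 0.22) and Gapdh (-2.04 ± 0.60). Against SVF, epididymis was the higher side for 5 (21.7%, against 10.2%) and SVF for 1 (4.35%, against 8.68%), with a median of 0.36. The largest toward epididymis was Ldhb (2.65 ± 0.35), a subunit of lactate dehydrogenase. The others, Pgk2 (2.60), Ldhc (2.19), Gapdhs (2.15) and Pgam2 (2.07), were all higher in testis than in epididymis. Pfkp (-1.50 ± 0.52) was the one on the SVF side. In epididymis over testis 3 were higher in epididymis (13.0%, near the 14.3% of all named genes) and 7 in testis (30.4%, against 18%), with a median of -0.34 and with Hk2 (hexokinase 2, 2.18 ± 0.12) and Pgk1 (1.94) on the epididymal side.

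**Figure D3:**
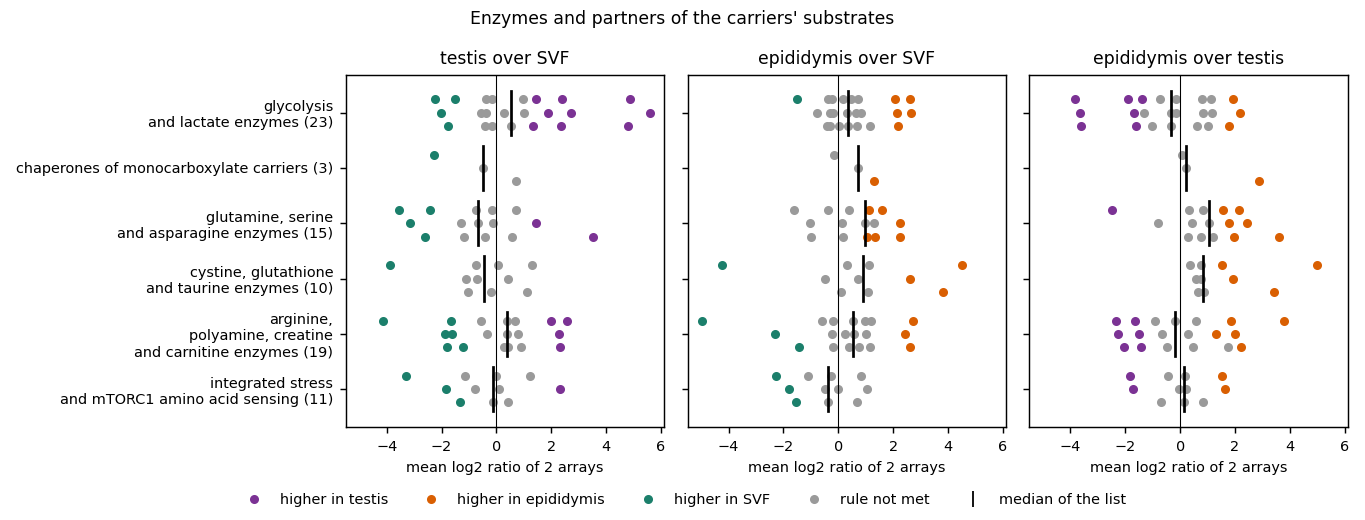
Mean log2 ratio of each measured gene of 6 lists of enzymes and sensors related to the carriers, with a bar at the list median, for the 3 comparisons. In epididymis over testis the lists of glutamine, serine and asparagine enzymes and of cystine, glutathione and taurine enzymes have medians of 1.04 and 0.82 (1.80 and 1.24 on the array with epididymis in Cy5, 0.66 and 0.59 on the exchanged array), and the glycolysis and lactate list has a median of -0.34.

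The glutamate and neutral amino acid carriers of the Slc1 family fell on both sides. Slc1a5 (ASCT2), which brings in glutamine and other neutral amino acids, had the largest ratio toward SVF among the carriers in testis over SVF, at -3.51 and -3.21 (-3.36 ± 0.21, 10.2-fold higher in SVF). In epididymis over testis it read 2.97 and 3.41 (3.19 ± 0.31, 9.14-fold), and in epididymis over SVF -0.70 and -0.32. Slc1a5 was thus low in testis beside both other tissues, which were within 2-fold of each other on both arrays. Slc1a4 (ASCT1), its close relative, was higher in epididymis than testis at 1.36 and 1.61 (1.49 ± 0.18, 2.80-fold).

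Slc1a1 and Slc1a2, both glutamate carriers, took opposite directions. Slc1a1 (EAAT3) read -2.78 and -2.11 in testis over SVF (-2.45 ± 0.47, 5.45-fold higher in SVF), 4.02 and 2.33 in epididymis over SVF (3.18 ± 1.19, 9.04-fold) and 3.92 and 2.89 in epididymis over testis (3.40 ± 0.73, 10.6-fold). It was highest in epididymis and lowest in testis on all 6 arrays, though its 3 ratios did not add up: testis over SVF plus epididymis over testis fell short of epididymis over SVF by 2.22. Slc1a2 (EAAT2) was higher in testis, at 1.84 and 1.63 over SVF (1.73 ± 0.15, 3.33-fold) and -1.66 and -2.25 in epididymis over testis (-1.96 ± 0.42, 3.88-fold). Slc1a3, Slc1a6 and Slc1a7 met the rule in no comparison, with means between -0.54 and 0.72. The 2 probes of Slc1a3 went apart, at -1.49 and 1.06 in testis over SVF.

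The Slc38 family of sodium-coupled neutral amino acid carriers holds the carrier with the largest ratio of epididymis over testis. Slc38a5 (SNAT5), which carries glutamine, read 4.36 and 3.75 in epididymis over testis (4.06 ± 0.43, 16.7-fold) and 4.02 and 3.60 in epididymis over SVF (3.81 ± 0.30, 14.0-fold). Testis and SVF were close, at 0.06 and 0.36, so the epididymis alone stood apart. Slc38a4 (SNAT4) read 2.76 and 2.84 in epididymis over testis (2.80 ± 0.06, 6.97-fold), 2.61 and 1.94 in epididymis over SVF (2.27 ± 0.47, 4.84-fold) and -1.86 and -1.54 in testis over SVF (-1.70 ± 0.22, 3.24-fold higher in SVF). It was highest in epididymis and lowest in testis. All 10 measured genes of the duct epithelium were higher in epididymis in both comparisons, with means from 2.40 to 7.29 over SVF and from 2.41 to 7.42 over testis. Over testis, 5 of 6 mesenchymal progenitor and 5 of 7 adipocyte genes were also higher in epididymis, against 14.3% of all named genes. The part of these cell types in the epididymal ratios of the carriers was not tested.

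Slc38a2 (SNAT2), which cells raise when amino acids are scarce, was highest in SVF by the mean of its probes. It read -2.82 and -3.07 in testis over SVF (7.69-fold higher in SVF), -1.57 and -2.64 in epididymis over SVF (-2.11 ± 0.76, 4.31-fold higher in SVF) and 1.40 and 1.15 in epididymis over testis (1.28 ± 0.17). These are means of 2 unequal probes. In testis over SVF both were on the SVF side, at -1.45 and -4.44. In epididymis over SVF they had means of -1.17 and -3.05, but the arrays of the first probe read 0.12 and -2.46, on either side of zero. The direction there therefore rests on the second probe. With 1 probe per gene, which kept the probe of the smaller ratio in testis over SVF, the calls in epididymis over SVF and epididymis over testis were lost. The other probe met the rule in all 3 comparisons. Slc38a9, a lysosomal carrier that reports arginine to mTORC1, was higher in testis than SVF at 1.38 and 1.27 (1.33 ± 0.08, 2.51-fold), with probes at 0.73 and 1.92. Only the probe at 1.92 met the rule, and the setting with 1 probe per gene kept the other. Slc38a1, Slc38a3, Slc38a6, Slc38a7, Slc38a10 and Slc38a11 met the rule in no comparison, with means between -0.81 and 0.86.

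The Slc7 family holds the light chains of the carriers built with an Slc3 heavy chain. Slc7a5 (LAT1), which exchanges large neutral amino acids such as leucine, was called in all 3 comparisons. It read 2.13 and 1.87 in testis over SVF (2.00 ± 0.19, 4.01-fold), 4.61 and 3.72 in epididymis over SVF (4.16 ± 0.63, 17.9-fold) and 2.64 and 2.31 in epididymis over testis (2.47 ± 0.23, 5.56-fold). All 6 arrays placed Slc7a5 highest in epididymis, next in testis and lowest in SVF. Its heavy chain Slc3a2 (4F2hc) was higher in epididymis than testis at 1.35 and 1.14 (1.24 ± 0.14), read 1.01 and 0.93 in epididymis over SVF and so missed the rule on 1 array, and read -0.28 and -0.65 in testis over SVF. In testis over SVF, the light chain and the heavy chain therefore had ratios of opposite sign on both arrays.

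Of the 6 measured light chains that pair with Slc3a2, 3 were higher in epididymis than testis and 1 was lower. The shares over all named genes were 14.3% and 18%, and 6 genes are too few to read beside them. Slc7a11 (xCT), which takes in cystine in exchange for glutamate, read 1.88 and 1.90 in epididymis over SVF (1.89 ± 0.01, 3.71-fold) and 3.90 and 1.61 in epididymis over testis (2.76 ± 1.62, 6.76-fold). The direction held on all 4 arrays while the size in the second comparison differed widely between the dyes. Its ratios of testis over SVF were 0.65 and -0.97, on either side of zero. Slc7a8 (LAT2) was higher in epididymis than testis at 1.46 and 1.25 (1.35 ± 0.15). Slc7a6 (y+LAT2) was lowest in epididymis, at -1.06 and -1.71 over SVF (-1.38 ± 0.46, 2.61-fold higher in SVF) and -1.01 and -1.21 over testis (-1.11 ± 0.14, 2.16-fold higher in testis). Slc7a7 and Slc7a10 met the rule in no comparison.

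Slc7a9 (b0,+AT), which takes up cystine and basic amino acids with Slc3a1 as its heavy chain, was higher in epididymis than testis at 1.96 and 2.20 (2.08 ± 0.17, 4.23-fold). Slc3a1 (rBAT) read -1.24 and 0.77 in that comparison, on either side of zero. Slc7a4 read 2.93 and 1.96 in epididymis over SVF (2.44 ± 0.69, 5.44-fold) and 1.43 and 1.34 in epididymis over testis (1.38 ± 0.06), and Slc7a15 read 1.74 and 2.68 (2.21 ± 0.67, 4.63-fold) and 2.20 and 2.57 (2.38 ± 0.26, 5.22-fold). Both were higher in epididymis than in either other tissue, although the probes of Slc7a15 were unequal, at 1.02 and 3.40 over SVF. Of the cationic amino acid carriers, Slc7a1 (CAT1) had probes that met the rule in opposite directions in epididymis over testis, at 1.94 and -1.07, and its gene mean of 0.43 describes neither. Slc7a2 (CAT2) met the rule in no comparison. Slc7a3 (CAT3) had deposited values above zero on all 6 arrays, between 0.86 and 1.85, and so followed the dye. Slc7a12, Slc7a13 and Slc7a14 met the rule in no comparison either.

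The Slc6 family carries neurotransmitters, amino acids, creatine and taurine with sodium and chloride. In testis over SVF, 4 of its 18 members (22.2%, against 16% of all named genes) were higher in SVF and none in testis, against 20.7%. In epididymis over testis, 2 (11.1%, near the 14.3% of all named genes) were higher in epididymis and 1 (5.56%, against 18%) in testis. Slc6a8, the creatine carrier, read -1.91 and -3.99 in testis over SVF (-2.95 ± 1.47, 7.73-fold higher in SVF), -1.64 and -1.53 in epididymis over SVF (-1.59 ± 0.07, 3.00-fold higher in SVF) and 1.30 and 1.95 in epididymis over testis (1.63 ± 0.46, 3.09-fold). Slc6a6, the taurine carrier, read -2.53 and -2.66 (-2.60 ± 0.10, 6.04-fold higher in SVF) and -1.13 and -1.61 (-1.37 ± 0.34, 2.58-fold) in the comparisons with SVF, and 1.32 and 0.80 in epididymis over testis. Both carriers were highest in SVF and lowest in testis by their means. Slc6a9 (GLYT1), a glycine carrier, was low in testis, at -2.10 and -2.39 over SVF (-2.25 ± 0.20, 4.75-fold higher in SVF) and 2.41 and 2.33 in epididymis over testis (2.37 ± 0.06, 5.17-fold), and within 2-fold between epididymis and SVF. Slc6a2, the noradrenaline carrier, was higher in SVF than in testis, at -1.42 and -1.40 (-1.41 ± 0.01, 2.66-fold), and than in epididymis, at -1.18 and -1.34 (-1.26 ± 0.11, 2.40-fold).

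Slc6a15, a neutral amino acid carrier, was higher in epididymis than SVF at 1.83 and 3.37 (2.60 ± 1.09, 6.06-fold), and Slc6a7, a proline carrier, was higher in testis than epididymis at -1.48 and -2.17 (-1.83 ± 0.48, 3.55-fold). The remaining 12 Slc6 carriers met the rule in no comparison, with means between -1.28 and 0.92. These are Slc6a3, Slc6a4, Slc6a5, Slc6a11, Slc6a12, Slc6a13, Slc6a14, Slc6a17, Slc6a19, Slc6a20a, Slc6a20b and Slc6a21. For some of them the 2 arrays were far apart: Slc6a5 read 2.60 and -1.59 in testis over SVF, Slc6a3, the dopamine carrier, read -1.88 and 1.75 in epididymis over SVF, and Slc6a17 read -4.27 and 1.71 in epididymis over testis. Their means describe no tissue difference.

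Slc43a1 (LAT3), a carrier of large neutral amino acids, was highest in SVF and lowest in testis. It read -3.05 and -3.12 in testis over SVF (-3.08 ± 0.04, 8.48-fold higher in SVF), -1.04 and -1.70 in epididymis over SVF (-1.37 ± 0.46, 2.58-fold) and 1.38 and 1.45 in epididymis over testis (1.41 ± 0.05). Slc43a3, a carrier of purine bases, was low in testis, at -2.18 and -1.78 over SVF (-1.98 ± 0.28, 3.94-fold higher in SVF) and 1.29 and 1.57 in epididymis over testis (1.43 ± 0.20), while Slc43a2 met the rule in no comparison. In the proton-coupled Slc36 family, Slc36a4 was on the testis side, at 1.37 and 1.72 over SVF (1.55 ± 0.24, 2.92-fold) and -1.24 and -1.56 in epididymis over testis (-1.40 ± 0.22, 2.64-fold). Its relative Slc36a2 was higher in epididymis than testis at 1.26 and 1.05 (1.15 ± 0.15), a call that was lost when all 6 arrays were fitted together. Slc36a1 and Slc36a3 met the rule in no comparison, and the probes of Slc36a1 were unequal in testis over SVF, at 0.22 and -2.21.

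Beside the carriers that were higher in SVF, markers of its cells were higher there as well. In testis over SVF, SVF was the higher side for 6 of 6 measured macrophage genes (means from -5.92 to -1.66), 5 of 7 endothelial, 5 of 6 mesenchymal progenitor, 5 of 6 T and NK cell and 3 of 5 mesothelial genes. The same lists gave 6, 5, 3, 5 and 2 on the SVF side in epididymis over SVF. The SVF side held 16% of all named genes in testis over SVF and 8.68% in epididymis over SVF. Beside the carriers that were higher in testis than SVF, testis was the higher side for 5 of 7 meiosis, 5 of 8 Sertoli cell and 5 of 5 measured Leydig cell genes, besides the late spermatid genes. The testis side of that comparison held 20.7% of all named genes. In epididymis over SVF, 4 of 8 Sertoli cell, 3 of 7 meiosis and 2 of 5 clear cell genes were higher in epididymis, against 10.2% of all named genes. None of the 5 Leydig cell genes was, which at that share is too few genes to read. Against testis, epididymis was the higher side for 5 of 6 mesenchymal progenitor, 5 of 7 adipocyte and 3 of 6 macrophage genes. It also was for 3 of 5 clear cell, 2 of 7 endothelial, 2 of 6 T and NK cell and 2 of 5 mesothelial genes. Testis was the higher side for 8 of 12 late spermatid, 5 of 7 meiosis and 4 of 8 Sertoli cell genes. It also was for 4 of 5 Leydig cell and 1 of 5 clear cell genes. Those sides held 14.3% and 18% of all named genes. The part of these cell types in the carrier ratios was not tested.

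Enzymes that make or use the cargo of the amino acid carriers were counted in the same way. Of 15 measured glutamine, serine and asparagine enzymes, 6 (40.0%) were higher in epididymis than SVF, against 10.2% of all named genes, and none was lower, against 8.68%. Their median was 0.96, against 0.07 over all named genes, and fell to 0.41 with 1 probe per gene. Over testis 6 (40.0%, against 14.3%) were higher, among them Got2, whose probes disagreed, and 1 (6.67%, against 18%) was lower. The median there was 1.04, with 1.80 on the array with epididymis in Cy5, 0.66 on the exchanged array and 0.83 with 1 probe per gene. The largest over testis were Glul (glutamine synthetase, 3.62 ± 0.41), Asns (asparagine synthetase), which was the one higher in testis, at -2.50, and Glud1 (glutamate dehydrogenase, 2.44 ± 0.36). Over SVF the serine enzymes Phgdh (2.25 ± 0.02), Psph (2.25 ± 0.74) and Shmt2 (1.61 ± 0.14) led. Against SVF, testis was the higher side for 2 (13.3%, against 20.7%) and SVF for 4 (26.7%, against 16%), with a median of -0.66 (-0.40 and -0.93 on the single arrays), with Oat (ornithine aminotransferase, -3.54 ± 1.14) and Glud1 (-3.14 ± 0.47) on the SVF side and Asns (3.53 ± 0.04) and Psph (1.43 ± 0.01) on the testis side.

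Of 10 measured cystine, glutathione and taurine enzymes, 3 (30.0%, against 10.2% of all named genes) were higher in epididymis than SVF and 1 (10%, near the 8.68% of all named genes) was lower, with a median of 0.90. Over testis 4 (40.0%, against 14.3%) were higher and none was lower, against 18%, with a median of 0.82 that was 1.24 on the array with epididymis in Cy5 and 0.59 on the exchanged array. Cth, which makes cysteine from cystathionine, read 4.50 ± 0.80 over SVF and 3.43 ± 1.04 over testis, and Cdo1, which oxidises cysteine on the way to taurine, read 3.83 ± 0.56 and 4.97 ± 0.49. Ggt5, which cleaves glutathione conjugates, was higher in SVF than epididymis (-4.24 ± 0.30) and than testis (-3.90 ± 0.03). It was the one member of 10 called in testis over SVF (10% on the SVF side, against 16%, and none on the testis side, against 20.7%). The median there was -0.46 (-0.20 and -0.70 on the single arrays). The cystine carrier Slc7a11 and these cysteine enzymes were thus higher in epididymis than in both other tissues, while the taurine carrier Slc6a6 was highest in SVF.

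Of 19 measured arginine, polyamine, creatine and carnitine enzymes, testis was the higher side over SVF for 4 (21.1%, near the 20.7% of all named genes) and SVF for 6 (31.6%, against 16%). Between epididymis and SVF each side had 3 (15.8%, against 10.2% and 8.68%), and between epididymis and testis 5 (26.3%, against 14.3%) were on the epididymal and 6 (31.6%, against 18%) on the testis side. The medians were 0.37, 0.55 and -0.18. The single arrays disagreed in sign on the first (0.57 and -0.03) and the last (-0.55 and 0.20), and the array with epididymis in Cy5 gave 0.33 for the second. The 2 arginases parted: Arg1 was higher in SVF than testis (-4.12 ± 0.50) and than epididymis (-4.97 ± 0.88), and Arg2 was higher in epididymis than SVF (2.73 ± 0.26) and than testis (3.80 ± 0.33). Gamt, which completes creatine synthesis, was higher in epididymis than SVF (2.62 ± 0.64), on the same side as the creatine carrier Slc16a12 and opposite to the creatine carrier Slc6a8. The muscle form of carnitine palmitoyltransferase, Cpt1b, was higher in testis than SVF (2.57 ± 0.19) and than epididymis (-2.33).

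Of 11 measured genes of the integrated stress response and of mTORC1 amino acid sensing, testis was the higher side over SVF for 1 (9.09%, against 20.7% of all named genes) and SVF for 3 (27.3%, against 16%). The median was -0.13, and single arrays gave -0.61 and -0.31. Between epididymis and SVF none was higher in epididymis, against 10.2%, and 3 (27.3%, against 8.68%) were higher in SVF (median -0.37). Between epididymis and testis 2 were on each side (18.2%, near the 14.3% and 18% of all named genes), with a median of 0.12 (0.23 and 0.12 on the single arrays). Atf4, the factor that drives amino acid carrier and synthesis genes under stress, was higher in SVF than testis (-3.29 ± 0.07) and than epididymis (-2.26 ± 0.56), and Mtor was higher in testis than SVF (2.31 ± 0.35). As examples of genes that Atf4 is known to drive, Slc38a2 was highest in SVF by the mean of its probes and Slc7a11 was highest in epididymis. Asns was higher in testis than in both SVF and epididymis. These examples were not drawn from a full list of such genes, so they show no pattern for the genes of Atf4. In the stress list itself, Ddit3 was lower in epididymis than in SVF (-1.54) and testis (-1.82), and Trib3 met the rule in no comparison.

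Carriers that lie next to each other on the chromosome did not always share a direction. In the mouse RefSeq gene order of GRCm38.p6, 8 pairs of the carriers are adjacent protein-coding genes. Slc38a2 and Slc38a4 are such a pair. In epididymis over SVF, Slc38a2 was higher in SVF at -2.11 ± 0.76 and Slc38a4 higher in epididymis at 2.27 ± 0.47. In the other comparisons this pair shared a direction, higher in SVF than testis (-2.94 and -1.70) and higher in epididymis than testis (1.28 and 2.80). In both comparisons with epididymis, only the Slc38a2 probe with the larger ratios met the rule. Slc16a11 and Slc16a13 were both higher in epididymis than testis, at 1.34 and 3.10. In the pairs of Slc6a12 with Slc6a13 and Slc6a20a with Slc6a20b neither gene met the rule, and in the pairs of Slc36a3 with Slc36a2, Slc36a2 with Slc36a1, Slc38a1 with Slc38a2 and Slc5a4b with Slc5a4a one gene did. Of the 4 X-linked carriers, Slc38a5 and Slc6a8 are described above, and Slc6a14 and Slc7a3 met the rule in no comparison.

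Agreement between the 2 arrays of a swap limited what could be read for single carriers. Across the 96 carriers, the arrays correlated with a Pearson's r of 0.76 in testis over SVF, 0.55 in epididymis over SVF and 0.71 in epididymis over testis, as a description across genes that share both RNAs. The sign was the same on both arrays for 73, 67 and 69 carriers. The median SD was 0.31, 0.34 and 0.31, and the highest was that of Slc5a4a in the first 2 comparisons, 4.05 and 4.98, and that of Slc6a17 in the last, 4.22. Since the tissues form a loop, testis over SVF plus epididymis over testis should return epididymis over SVF. It did so to within 1 on the log2 scale for 89 of 96 carriers. The 7 others were Slc6a17, Slc1a1, Slc5a4a, Slc5a8, Slc2a1, Slc38a4 and Slc38a11. The rule itself passed values such as the -1.01 of Slc7a6 in epididymis over testis and left out values such as the 0.95 of Slc2a8 in testis over SVF and the 0.94 of Slc16a9 in epididymis over testis, which are close beside the spread between arrays.

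**Figure D4:**
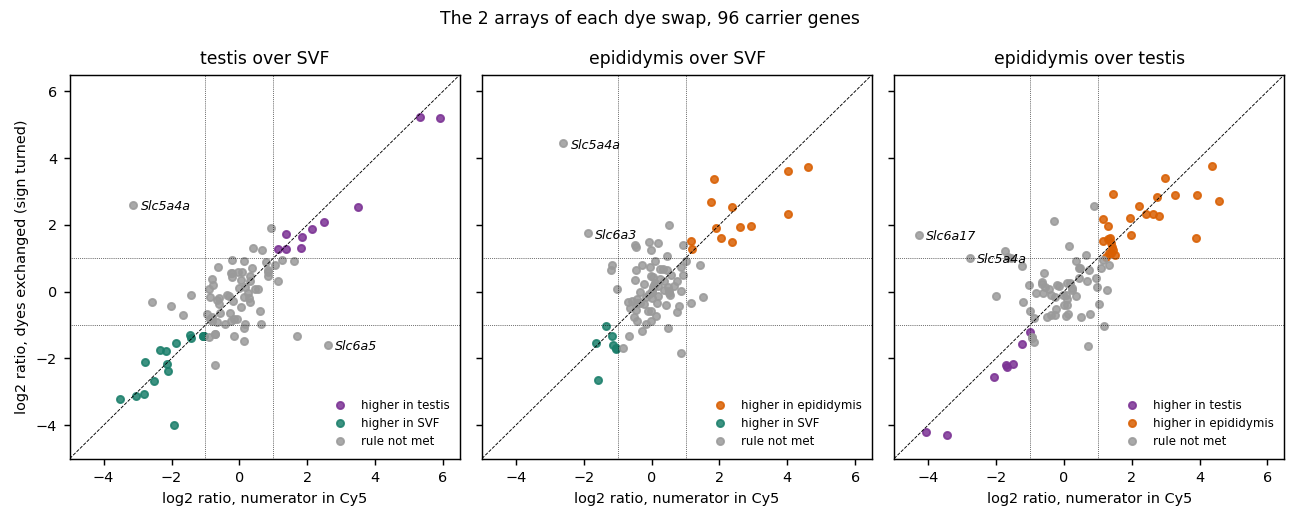
Log2 ratio on the array with the dyes exchanged against that on the array with the numerator tissue in Cy5, for the 96 carriers in the 3 comparisons. Points near the diagonal agree between the dyes, and the labelled points farthest from it, such as Slc5a4a in all 3 panels, are carriers whose arrays were opposite in sign.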

How the data were processed

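Total RNA of 3 mouse tissues, 1 RNA sample each, was measured on 6 two-colour arrays in 3 dye swaps. Extraction is labelled Qiagen and labelling Ambion, with Cy3 and Cy5 as dyes. The authors deposited a log ratio of each of 25344 probes on every array. The ratios were read as log2 by convention, since extremes in base 10 would lie beyond what a scanner records. The sources used here do not give the base, normalization, background correction or direction, and the deposited columns had medians from 0.0053 to 0.114 and values from -8.41 to 10.25, so printed folds rest on log2. Channel intensities were not used here, so no filter on dim probes was set, and all 96 members kept values on all 6 arrays.

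The Cy5 tissue served as numerator, with signs turned on exchanged arrays. The platform annotation names 21112 of the probes. Of these, 20456 were updated by gene ID and 220 by symbol to mouse RefSeq (GRCm38.p6), 248 kept the annotated name, and 158 of other species and 30 with several genes were left out, which gave 18545 genes. The value of a gene is the mean of its probes. The members, lists and rules were chosen with earlier results of these data known. Genes were named where they met the 2-fold rule on both arrays (the 12 highest and lowest by mean), where the arrays or the probes disagreed, or where they lay near the threshold, and from each pathway list up to 3 members with the largest ratio and up to 2 against the list median. Carriers past the 12 were named as well, so that every carrier is accounted for. Alternatives were median centring, a least-squares loop over the 6 arrays, a limma fit with a dye term, 1 probe per gene, other thresholds, natural logarithms and single arrays. Python 3.11.15, pandas 2.3.3, R 4.3.3 and limma 3.58.1 were used, and the scripts were tested on simulated data. The number of arrays limits the precision.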

Additional observations from a re-analysis of the deposited data

How the results depend on the processing

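All 26, 20 and 34 carriers that met the 2-fold rule in testis over SVF, epididymis over SVF and epididymis over testis met it again after each array was centred on its median. At 4-fold on both arrays, the carriers were 4 higher in testis and 7 in SVF in testis over SVF, 4 higher in epididymis and 0 in SVF in epididymis over SVF, and 10 higher in epididymis and 3 in testis in epididymis over testis. The pathway genes at 4-fold were 9 and 8, 9 and 2, and 9 and 4 in the same order, against 16 and 19, 18 and 8, and 21 and 16 at 2-fold. With 2-fold on the mean alone, 13 carriers were higher in testis than epididymis, against 8. Single arrays gave 14 to 16 carriers higher in testis and 21 to 25 higher in SVF in testis over SVF, 17 to 23 higher in epididymis and 12 higher in SVF in epididymis over SVF, and 13 to 17 higher in testis in epididymis over testis. Single arrays gave 9 to 13 pathway genes higher in SVF than epididymis and 21 to 33 higher in epididymis than testis. A lower or higher threshold, or 1 array for 2, changes these counts by construction.

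The least-squares loop and the limma fit with a dye term both left out Slc2a1 in testis over SVF and Slc36a2 in epididymis over testis, and limma gave 33, 24 and 38 carriers past 2-fold. With 1 probe per gene, the probe kept had the median size of ratio in testis over SVF, which of 2 probes is the smaller. Slc38a9 in testis over SVF and Slc38a2 in both comparisons with epididymis were then lost, while their other probes met the rule. Got2 in epididymis over testis read 1.58 as the mean of its probes and -0.039 on the probe kept, so its probes disagreed. Leaving out carriers whose arrays differed by over 1.5 removed Slc6a8 in testis over SVF, Slc1a1 and Slc6a15 in epididymis over SVF, and Slc16a10, Slc16a12 and Slc7a11 in epididymis over testis. Read as natural logarithms, the values would give 39, 25 and 42 carriers past 2-fold. No paired analysis was possible because each tissue is 1 RNA sample and the arrays of a swap are repeat hybridisations. Levels within a tissue, differences between animals and signal over background could not be assessed from log ratios.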
